A study of Rattus norvegicus with 4 samples.

Results

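The Egr, Nr4a and Arc activity genes are 8 genes whose transcription follows neuronal firing: the zinc finger factors Egr1, Egr2, Egr3 and Egr4, the orphan nuclear receptors Nr4a1, Nr4a2 and Nr4a3, and the synaptic effector Arc. They were taken by symbol, and all 8 were present among 14217 genes with a singly named probe set, through 13 of the 31099 probe sets on the array. A probe set is a group of short probes against 1 transcript. Each gene is read from its brightest probe set by mean over the arrays, and its other probe sets are given for comparison.

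The samples came from the hippocampus of Sprague-Dawley rats, 24 h after an intrahippocampal injection. 1 array held RNA from rats given kainic acid with the peptide NAP (KA+NAP), 1 from rats given kainic acid alone (KA), 1 from rats given NAP alone, and 1 from rats given phosphate-buffered saline (PBS), the vehicle. Kainic acid activates kainate-type glutamate receptors and drives excitotoxic firing, and NAP is a short neuroprotective peptide derived from ADNP. The labels do not state the age, sex or number of rats per array. They speak of the CA3 area in the design and of hippocampi in the treatment protocol. The values are MAS5 intensities, linear whole numbers scaled by the authors to a common trimmed mean. With 1 array per group no difference below has a replicate error or a test. Differences are taken on log2(intensity + 10), in the direction each comparison's name gives, and a difference of at least 2-fold (1 on this scale) is used only as a fixed size.

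Egr proteins bind GC-rich sites in promoters and switch on later waves of transcription, and Nr4a receptors act on their sites without needing a known ligand. Arc protein acts at synapses and promotes the internalisation of AMPA receptors. All belong to the immediate early genes, whose transcripts appear soon after firing through factors already in the neuron, chiefly SRF on CArG boxes and CREB on CREs, and then decay quickly. The genes are widely used as markers of recently active hippocampal neurons. The samples here were all taken at 24 h, and the time course of these transcripts was not measured.

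The upstream sequences of 5 of the 8 genes were available from RefSeq (build GRCr8), each as a window from 250 bases before to 50 bases after the gene's start. Among them, Egr2 lay above PBS on the KA array by its brightest probe set, while Egr1, Nr4a1 and Nr4a2 lay below. With probe sets averaged, Egr2 was at -0.02 in KA minus PBS. All of these genes read higher on the KA+NAP array than on the NAP array. A link between promoter sequence and these differences was not tested. The windows of Egr1 (chr18:26736828-26737127, + strand), Egr2 (chr20:21054392-21054691, - strand), Nr4a1 (chr7:134259888-134260187, + strand) and Nr4a2 (chr3:62104838-62105137, - strand) are shown. They are written 5′ to 3′, and capitals mark CArG boxes and the CRE core, searched as CGTCA or TGACG so that both strands are covered.
Egr1: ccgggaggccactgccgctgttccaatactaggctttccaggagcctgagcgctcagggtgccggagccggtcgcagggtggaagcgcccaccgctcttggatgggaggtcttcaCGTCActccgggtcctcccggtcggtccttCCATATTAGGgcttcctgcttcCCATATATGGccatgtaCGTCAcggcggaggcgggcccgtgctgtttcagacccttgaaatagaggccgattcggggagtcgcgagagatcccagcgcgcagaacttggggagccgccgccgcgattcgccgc
Egr2: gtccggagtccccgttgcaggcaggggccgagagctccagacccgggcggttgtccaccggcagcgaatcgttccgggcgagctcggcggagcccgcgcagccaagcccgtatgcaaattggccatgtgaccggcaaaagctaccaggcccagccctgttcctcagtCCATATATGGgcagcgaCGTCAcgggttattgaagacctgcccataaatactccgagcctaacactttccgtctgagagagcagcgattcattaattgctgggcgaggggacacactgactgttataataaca
Nr4a1: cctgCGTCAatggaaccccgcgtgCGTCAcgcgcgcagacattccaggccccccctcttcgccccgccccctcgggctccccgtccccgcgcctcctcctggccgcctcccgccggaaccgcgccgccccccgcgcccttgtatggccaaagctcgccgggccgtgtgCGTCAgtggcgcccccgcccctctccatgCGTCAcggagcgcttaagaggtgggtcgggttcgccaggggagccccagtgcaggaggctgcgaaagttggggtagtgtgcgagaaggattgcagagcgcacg
Nr4a2: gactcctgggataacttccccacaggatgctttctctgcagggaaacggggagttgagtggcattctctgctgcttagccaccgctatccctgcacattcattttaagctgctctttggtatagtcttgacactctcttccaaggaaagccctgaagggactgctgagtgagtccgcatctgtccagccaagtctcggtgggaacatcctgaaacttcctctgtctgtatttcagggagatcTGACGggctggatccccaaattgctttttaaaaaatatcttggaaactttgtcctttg

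Egr1 and Egr2 carried the same CArG box, CCATATATGG, 83 bases before the start, and a CRE core 66 bases before the start. Egr1 had a further CArG box, CCATATTAGG, 105 bases before the start, and a further CRE core at 135. A CArG box was found in 1.64% of 33469 promoter windows of this length, and at least 2 in 0.0209%. Nr4a1 had 4 CRE cores, at 246, 226, 82 and 53 bases before the start, a number reached by 0.236% of windows. Nr4a2 had 1 core, 8 bases before the start, and Egr4 (chr4:119607768-119608067, - strand) had 2, at 178 and 110. At least 1 core was present in 21.2% of windows. The full CRE, TGACGTCA, which contains both forms of the core, was in 1.83% of windows and in none of these 5. The site of the Nr4a receptors, AAAGGTCA, was in 1.43% and also in none of the 5. The Egr site, GCGNGGGCG, was in 4.98% of windows, and of the 5 it was found in Nr4a1, on the opposite strand, 73 bases before the start. CArG boxes, which read alike on both strands, did not overlap the CRE cores in these windows, and matches of letters are descriptions and not evidence of binding.

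The KA array was compared with the PBS array to describe the toxin alone. Nr4a3 and Nr4a2 were lower with KA by at least 2-fold, 4 other members lay below PBS by less than that on the log2(intensity + 10) scale, and Egr2 and the dim Egr3 lay above it. The count of 2 among 8 stands beside 2.39% of all 9489 genes past the intensity filter. None of the 8 was higher by at least 2-fold, against 4.91% of all genes. Having KA below PBS, as for 6 of the 8, was the case for 47.2% of all genes. The filter keeps genes whose brightest probe set has a mean intensity above 62.75, and 7 of the 8 members passed it. The median log2 difference of the 8 was -0.86, against 0.02 over all genes. The KA array was the lowest of the 4 for 6 of the 8 members, and for 23.5% of all genes. The PBS array was the highest for 5 of the 8, and for 23.4% of all genes. These members share the same 4 arrays, so their common order counts each array once. In bulk tissue, fewer cells of a type and less RNA per cell cannot be told apart. Markers of pan-neuronal, CA3 and CA1 identity also summed lower with KA than with PBS (22970 against 30851, 4196 against 6813 and 552 against 2337). The lower sum was not particular to neurons. It was also seen for astrocyte (23493 against 24706), microglia and macrophage (1120 against 1851) and oligodendrocyte markers (15343 against 17377). Endothelial (591 against 717), dentate (3438 against 3662) and interneuron markers (4771 against 4998) summed lower too, while the red blood cell marker Hbb was higher (186 against 5).

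**Figure D1:**
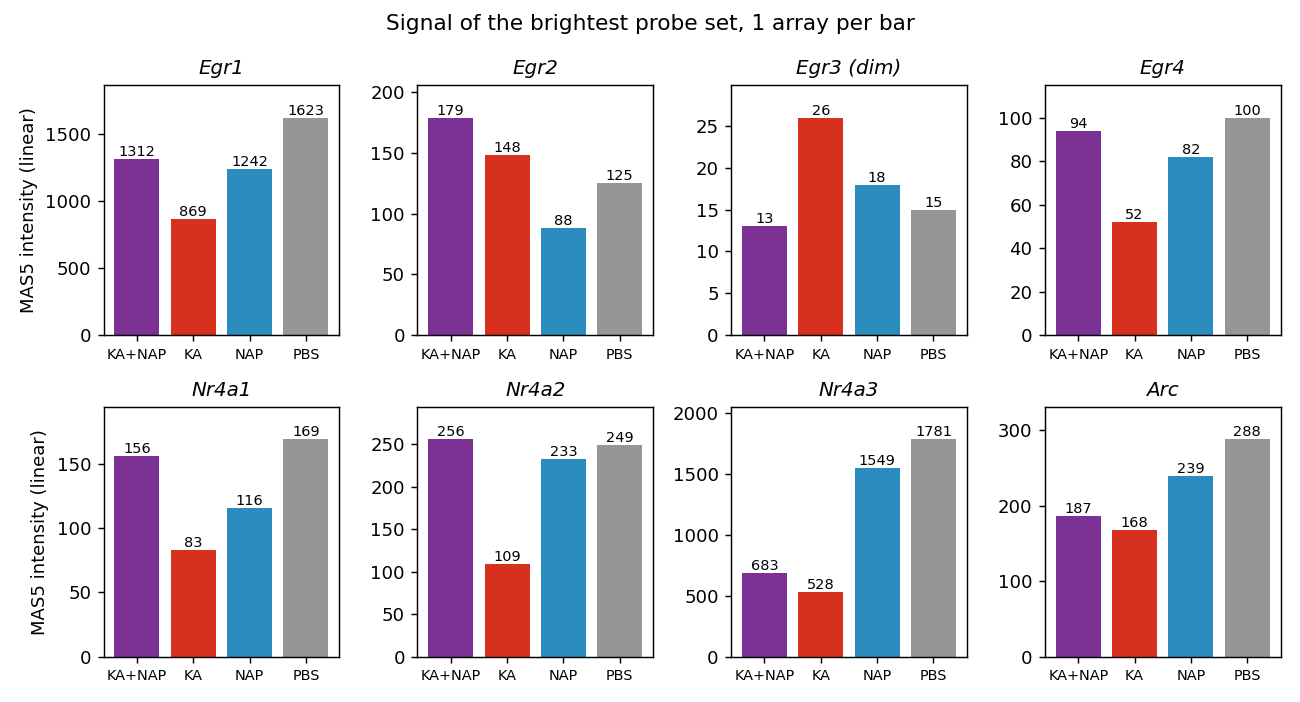
MAS5 intensity (linear axis from 0) of the brightest probe set of each of the 8 genes, 1 bar per array, for KA+NAP, KA, NAP and PBS. The KA bar is the lowest for Egr1, Egr4, Nr4a1, Nr4a2, Nr4a3 and Arc, and Egr3 stays at or below 26 on every array.

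Nr4a3 (NOR-1), a nuclear receptor induced by calcium and cAMP signals, lay farthest from PBS. Its intensity was 683 on the KA+NAP array, 528 on the KA array, 1549 on the NAP array and 1781 on the PBS array (probe set 1369067_at). Both arrays with KA lay below both without it, as was the case for 28.7% of all genes. The log2 difference was -1.74 in KA minus PBS and -1.17 in KA+NAP minus NAP, and these comparisons share no array. The KA signal was 29.6% of the PBS signal, and the KA+NAP signal was 44.1% of the NAP signal. A further probe set, 1393389_at, read 427, 395, 1174 and 1192 in the same order of arrays, with log2 differences of -1.57 and -1.44. The third, 1369217_at, was dim at 39, 30, 16 and 18, below the filter, and its differences had the opposite sign (0.51 and 0.91). With all 3 probe sets averaged, the differences of Nr4a3 were -0.93 and -0.56, under 2-fold.

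Nr4a2 (Nurr1), the receptor best known for maintaining dopamine neurons and also induced in hippocampus by firing, was low on the KA array alone. It read 256 on the KA+NAP array, 109 on the KA array, 233 on the NAP array and 249 on the PBS array (1369007_at). The 3 arrays other than KA lay close together, and the KA signal was 43.8% of the PBS signal. The log2 difference was -1.12 in KA minus PBS and 0.13 in KA+NAP minus NAP. The other probe set, 1387410_at, with a mean below the filter, read 95, 26, 40 and 73. It had the same low KA value, with -1.21 in KA minus PBS, but its difference in KA+NAP minus NAP was 1.07. With a pseudocount of 50 in place of 10, Nr4a2 was at -0.91 in KA minus PBS, under 2-fold.

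Nr4a1 (Nur77), the receptor linked to both activity-dependent control of dendritic spines and cell death in other settings, had a similar order. It read 156 on the KA+NAP array, 83 on the KA array, 116 on the NAP array and 169 on the PBS array. Its KA value was the lowest, and its NAP value lay between KA and KA+NAP. The log2 difference was -0.94 in KA minus PBS and 0.40 in KA+NAP minus NAP. The KA signal was 49.1% of the PBS signal, and the first difference passed 2-fold with a pseudocount of 1 (-1.02) and with arrays centred on their median (-1.01). Read against the other array without KA, these were -0.44 (KA minus NAP) and -0.11 (KA+NAP minus PBS).

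Egr1 (Zif268), the family member most used to map neuronal activity, read 1312 on the KA+NAP array, 869 on the KA array, 1242 on the NAP array and 1623 on the PBS array. The KA value was 53.5% of PBS, a log2 difference of -0.89, and KA+NAP minus NAP was 0.08. Egr4, the family member with a restricted neuronal pattern, read 94, 52, 82 and 100 in the same order of arrays. Its log2 differences were -0.83 in KA minus PBS and 0.18 in KA+NAP minus NAP. For both genes KA was the lowest array and the KA+NAP array lay between NAP and PBS. A dim second probe set of Egr4, 1375784_at, read 19, 17, 11 and 34, with NAP and not KA as the lowest array.

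Egr2 (Krox20), which in Schwann cells drives myelination and in hippocampus is an activity gene, lay above PBS on the KA array by its brightest probe set, where Egr1 and Egr4 lay below. It read 179 on the KA+NAP array, 148 on the KA array, 88 on the NAP array and 125 on the PBS array (1387306_a_at). Both arrays with KA lay above both without it, as for 32.3% of all genes. The log2 difference was 0.23 in KA minus PBS and 0.95 in KA+NAP minus NAP, where the NAP array had the lowest value. The other Egr2 probe set was dim at 12, 10, 15 and 14, with differences of -0.26 and -0.18. With both probe sets averaged, Egr2 was at -0.02 in KA minus PBS and 0.38 in KA+NAP minus NAP, so the sign of the first depends on the probe set. Egr3, which acts with Egr1 on shared sites, read 13, 26, 18 and 15, so its differences of 0.53 in KA minus PBS and -0.28 in KA+NAP minus NAP rest on signal below the filter.

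Arc read 187 on the KA+NAP array, 168 on the KA array, 239 on the NAP array and 288 on the PBS array. Like Nr4a3, it was lower on both arrays with KA than on both without, by smaller amounts. Its log2 difference was -0.74 in KA minus PBS and -0.34 in KA+NAP minus NAP. The KA signal was 58.3% of PBS, and the KA+NAP signal 78.2% of NAP.

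**Figure D2:**
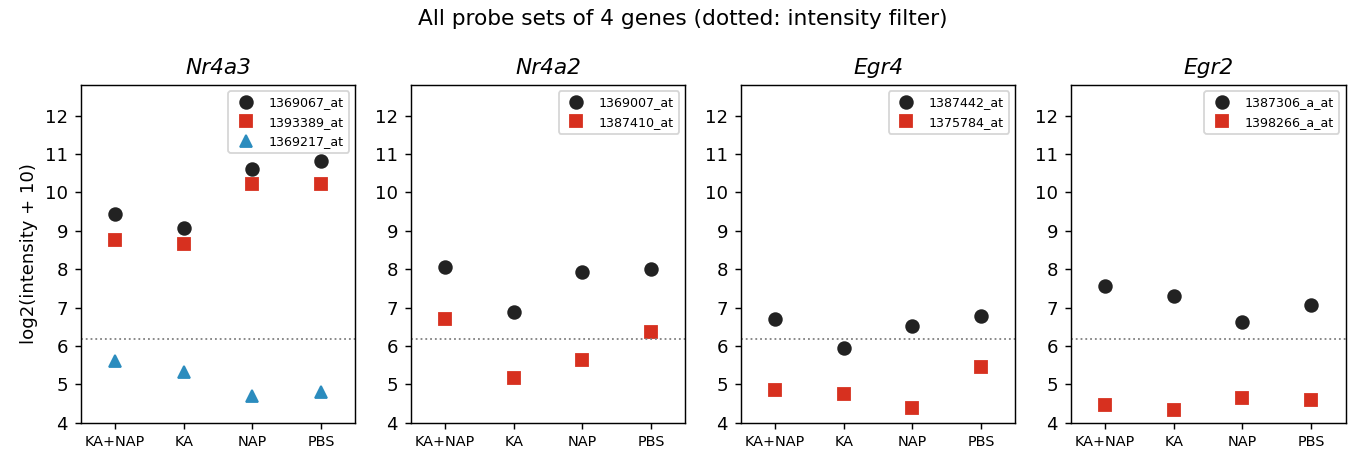
Log2(intensity + 10) of every probe set of Nr4a3, Nr4a2, Egr4 and Egr2 on the KA+NAP, KA, NAP and PBS arrays, with 1 symbol per probe set and the intensity filter of 62.75 dotted. Both bright Nr4a3 probe sets are lower on the arrays with KA, both Nr4a2 probe sets are lowest on the KA array, and the dim probe sets of Nr4a3, Egr4 and Egr2 differ from the bright ones.

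KA+NAP minus NAP gives the KA difference in rats that also had the peptide. Among the 8, Nr4a3 alone was lower by at least 2-fold there, beside 2.41% of all genes, and none was higher by that size, beside 5.66%. The median over the 8 was 0.10, against 0.03 over all genes. 5 members lay above 0 (Egr1, Egr2, Egr4, Nr4a1 and Nr4a2), and 3 lay below (Nr4a3, Arc and Egr3), as did 47.3% of all genes.

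**Figure D3:**
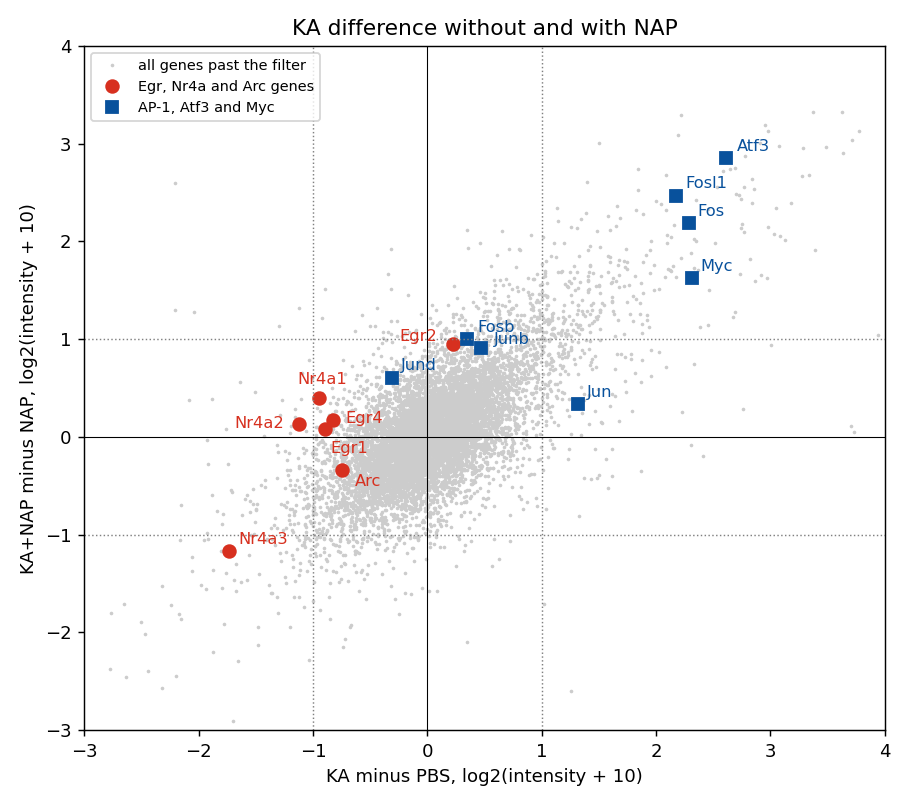
Log2 difference KA minus PBS (horizontal) against KA+NAP minus NAP (vertical) for all 9489 genes past the filter (grey; 11 genes lie outside the axes), 7 Egr, Nr4a and Arc genes (red circles) and 8 AP-1, Atf3 and Myc genes (blue squares), with dotted lines at 2-fold. Egr1, Egr4, Nr4a1 and Nr4a2 lie left of 0 and slightly above 0, Nr4a3 lies below 2-fold on both axes, and Fos, Fosl1, Atf3 and Myc lie above 2-fold on both.

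KA+NAP minus KA gives the peptide's difference in rats given the toxin. All 7 members past the filter lay above 0, by 0.15 to 1.16 on the log2 scale, and Egr3 lay at -0.65, while 45.4% of all genes lay below 0. Nr4a2 was the 1 member at least 2-fold higher, at 1.16 (0.94 with a pseudocount of 50), beside 1.52% of all genes, and none was at least 2-fold lower, beside 0.601%. Nr4a1 differed by 0.84, Egr4 by 0.75 and Egr1 by 0.59, while Nr4a3 differed by 0.37, Egr2 by 0.26 and Arc by 0.15. This comparison uses the KA array that is also in KA minus PBS, so the values of these comparisons are not independent.

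NAP minus PBS gives the peptide's difference without the toxin. By brightest probe set no member was 2-fold apart, beside 1.05% of all genes past that size upward and 0.242% downward. The other probe sets of Egr4 and Nr4a2, both below the filter, were at -1.07 and -0.73. The 7 members past the filter all lay below 0, from -0.09 for Nr4a2 to -0.51 for Nr4a1, and 45.2% of all genes lay below 0. Egr3 was at 0.16. Egr1, Egr4 and Nr4a1 therefore read lower on the KA+NAP array than on the PBS array (-0.30, -0.08 and -0.11) although they read higher there than on the NAP array. Nr4a2 was at 0.04 in KA+NAP minus PBS.

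The change of the KA difference with NAP, for which KA minus PBS is subtracted from KA+NAP minus NAP, uses all 4 arrays. It was above 0 for the 7 members past the filter, from 0.41 for Arc to 1.34 for Nr4a1, and at -0.81 for Egr3, and below 0 for 49.8% of all genes. It reached 2-fold for Nr4a1, Nr4a2 (1.25) and Egr4 (1.004), beside 1.77% of all genes past that size upward and 1.75% downward. Egr4 was under 2-fold with quantile normalization (0.95) and with a pseudocount of 50 (0.68). Egr1 was just under it at 0.97, Egr2 was at 0.72 and Nr4a3 at 0.57. Egr1, Egr4, Nr4a1 and Nr4a2 had KA below both arrays without KA and KA+NAP not below both, an order held by 10.2% of all genes. All 4 CA1 pyramidal markers on the array (Wfs1, Fibcd1, Pou3f1 and Mpped1) had that order too, with a summed intensity of 1964 on KA+NAP, 552 on KA, 1250 on NAP and 2337 on PBS, and their part in the members' values was not tested. The order was also that of Csf1r, Mobp and Cldn5 among the markers of other cells, and of Jund, Dusp6 and Rxrb among the lists below.

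**Figure D4:**
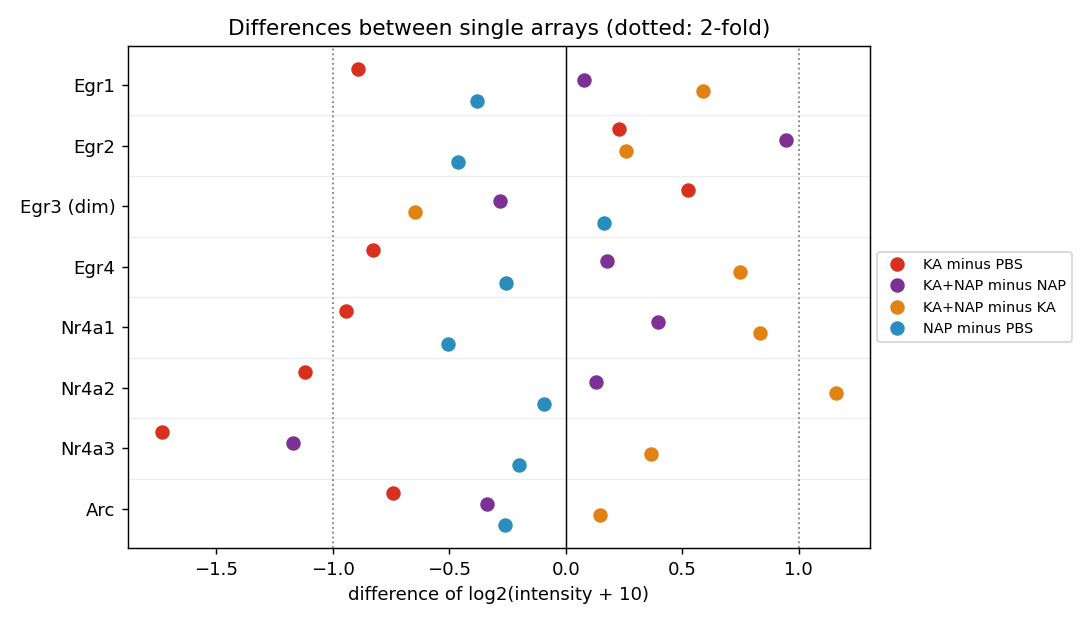
Differences of log2(intensity + 10) for each of the 8 genes, 1 point per comparison: KA against PBS (red), KA+NAP against NAP (purple), KA+NAP against KA (orange) and NAP against PBS (blue), with dotted lines at 2-fold. Nr4a3 and Nr4a2 lie below the lower line in KA minus PBS, and Nr4a2 lies above the upper line in KA+NAP minus KA.

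The members' profiles over the 4 arrays were compared by the root mean square distance of their log2 values after each gene's mean was removed. Egr1, Egr4 and Nr4a1 lay within 0.08 to 0.12 of each other, and Nr4a2 was at 0.18 from Egr4. Arc was nearest to Egr1, at 0.18. Nr4a3 and Egr2 were the farthest apart, at 1.02. Over the 4 arrays, the genes past the filter with profiles most like that of Nr4a2 were Adgrl2, a latrophilin adhesion receptor (0.04), Ddn, the postsynaptic protein dendrin (0.07), and Npas2, a clock-related factor (0.10). Those most like Nr4a3 were Calml4 (0.05), the citrate transporter Slc13a5 (0.07) and the lysine-degrading enzyme Aass (0.09). With 4 arrays many genes come close: 44 lay within 0.2 of Nr4a2 and 35 within 0.2 of Nr4a3. The number of genes that near to Egr1, Egr4, Nr4a1 or Arc was not counted, so their distances from each other are descriptions only.

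The AP-1, Atf3 and Myc genes, which encode transcription factors of other families, mostly read higher on the arrays with KA than on those without. Of the 9, 8 passed the filter. In KA minus PBS 5 of these 8 were 2-fold or more higher, beside 4.91% of all genes, and none lower, beside 2.39%. Their median was 1.74, against 0.02 over all genes. In KA+NAP minus NAP 5 were higher, beside 5.66% of all genes, and none lower, beside 2.41%. The median there was 1.31, against 0.03 over all genes. Atf3, a stress-induced factor, read 178 on the KA+NAP array, 161 on the KA array, 16 on the NAP array and 18 on the PBS array, with differences of 2.61 and 2.85. Fosl1 differed by 2.17 and 2.47, and Myc by 2.31 and 1.63. Jun differed by 1.31 without the peptide and 0.34 with it, and Fosb by 0.34 and 1, which is 2-fold. Jund, the least inducible Jun protein, was the exception at -0.31 and 0.61, with KA as its lowest array. For 7 of the 8 both arrays with KA lay above both without, beside 32.3% of all genes. Among the Egr, Nr4a and Arc genes past the filter that order held for Egr2 alone. Atf3, Fosl1 (20 on NAP and 25 on PBS) and Myc (56 and 54) read below 62.75 on both arrays without KA. They passed the filter only through the arrays with KA, so the counts and medians of this list lean upward by the filter. Fosb read 43 on NAP and 68 on PBS. The difference between the families was not tested, since each group has 1 array.

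Other activity-induced genes leaned the same way as AP-1. Of 28 listed, 24 were on the array and 21 passed the filter. In KA minus PBS 6 of the 21 were 2-fold or more higher, beside 4.91% of all genes, and none lower, beside 2.39%. Their median was 0.53, against 0.02 over all genes. The largest differences were those of Ier2, an immediate early nuclear protein (1.89), and Gem, a small GTPase (1.78). Gem read 50 on NAP and 36 on PBS, so it passed the filter only through the arrays with KA. The lowest were the clock gene Per1 (-0.82) and Dusp6, a phosphatase that switches off ERK (-0.32). In KA+NAP minus NAP 4 were higher, beside 5.66% of all genes, and none lower, beside 2.41% (median 0.52, against 0.03 over all genes). The 4 were the secreted peptide precursor Vgf (1.52), Dusp6 (1.51), Ier2 (1.47) and Klf4 (1.38). Per1 (-0.50) and Rasd1 (-0.47) were lowest. Homer1, which like Arc acts at the postsynaptic density, differed by 0.11 and -0.20. In KA+NAP minus KA, the phosphatase Dusp6 was at 1.63 and the neurotrophin Bdnf at -1.24, the 2 genes of this list past 2-fold there. Of all genes, 1.52% were past that size upward and 0.601% downward.

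The regulators of these genes were read from further lists. Among 17 upstream regulators past the filter, of 20 listed, 1 was 2-fold or more higher in KA minus PBS, beside 4.91% of all genes. It was the SRF partner Elk3 (1.51, and 1.11 in KA+NAP minus NAP). The 1 lower gene, beside 2.39% of all genes, was the CREB coactivator Crtc1 (-1.05 and -0.81). Medians over the 17 were 0.20 in KA minus PBS and 0.23 in KA+NAP minus NAP. Creb1 differed by 0.63 in KA minus PBS and Atf1 by 0.81 in KA+NAP minus NAP, the second highest of this list in each. Camk4, the nuclear calcium kinase, was at -0.58 and -0.85. Srf itself differed by -0.04 and 0.27. Of the Egr and Nr4a cofactors, 4 of 5 passed the filter and none reached 2-fold in either KA comparison. The Egr corepressor Nab1 differed by 0.40 and 0.18, and its relative Nab2 by -0.22 and -0.69. The retinoid X receptors, partners of Nr4a1 and Nr4a2, were at -0.63 and 0.02 for Rxrb and at -0.30 and -0.36 for Rxrg.

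Partners and described targets lay mostly below 0 in both KA comparisons. In KA minus PBS this held for 7 of 10 Arc partners past the filter and 5 of 6 described Egr targets, beside 47.2% of all genes. In KA+NAP minus NAP it held for 7 of 10 and 6 of 6, beside 47.3%. The lean was not particular to these lists, since in both comparisons 7 of 8 pan-neuronal and 6 of 6 CA3 markers lay below 0. For CA1 markers it was 4 of 4 in KA minus PBS and 0 of 4 in KA+NAP minus NAP. For dentate markers it was 2 of 3 and 3 of 3, and for interneuron markers 3 of 5 and 2 of 5. Of 12 Arc protein partners, 10 passed the filter. None was 2-fold apart in KA minus PBS (median -0.35), beside 4.91% of all genes higher and 2.39% lower. In KA+NAP minus NAP (median -0.42) 1 was at least 2-fold lower, beside 2.41% of all genes, the endophilin gene Sh3gl2 at -1.57. In KA minus PBS the lowest were Wasf1, an actin regulator (-0.97), and Camk2b (-0.68), and the highest were Sh3gl1 (0.55) and Sh3gl3 (0.28). In KA+NAP minus NAP, Dnm1 (dynamin 1) followed Sh3gl2 at -0.60, and Camk2a (0.33) and Ube3a (0.18) were highest. Of 9 genes described as Egr targets, 6 passed the filter, Arc among them, and none was 2-fold apart in either KA comparison (medians -0.42 and -0.71). The chloride cotransporter Slc12a5 differed by -0.61 and -0.74, the synapsin gene Syn2 by -0.55 and -0.99, its relative Syn1 by -0.29 and -0.23, and the GABA-A receptor gene Gabra4 by 0.32 and -0.77. Gabra4 was the 1 gene of this list past 2-fold in KA+NAP minus KA, at -1.16, beside 0.601% of all genes lower by that size.

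Marker genes of neurons differed between the arrays alongside these genes. CA3 pyramidal markers, all 6 of them on the array, summed to 4163 on KA+NAP, 4196 on KA, 6136 on NAP and 6813 on PBS, lower on both arrays with KA as Nr4a3 and Arc were. Dentate granule cell markers (5 of 6 on the array) summed to 2638, 3438, 4456 and 3662 in the same order, so these arrays of tissue labelled CA3 also gave signal for dentate markers. Of these dentate markers, Dsp (36, 25, 49 and 41) and Tdo2 (at or below 6 on every array) lay below the filter. No marker of these neuronal lists was at 0. The CA1 marker Mpped1 read 1159, 334, 889 and 1448, with KA lowest as for Egr1 and Nr4a2. Of the markers past the filter, 2 of 3 dentate, 5 of 6 CA3 and 6 of 8 pan-neuronal genes lay lower on both arrays with KA than on both without, beside 28.7% of all genes. That order was not particular to neurons, being held by 3 of 5 astrocyte and 2 of 3 oligodendrocyte markers. It was held by 0 of 4 CA1, 2 of 5 GABAergic interneuron, 1 of 6 microglia and macrophage and 0 of 2 endothelial markers. Sums over other cell types ranged from 23493 to 26443 for 5 astrocyte markers, 1120 to 2214 for 6 microglia and macrophage markers, 15343 to 17377 for 3 oligodendrocyte markers, 4473 to 5021 for 5 GABAergic interneuron markers and 591 to 932 for 3 endothelial markers. The lowest sum was on the KA array for each of these types except the interneurons, where it was on the KA+NAP array. Within these lists the genes differed in direction: the resting microglia marker P2ry12 read 232 on KA and 1071 on PBS, while Aif1 read 219 and 203 and Ptprc 237 and 83, and among astrocyte genes Gja1 read 5250 and 8491 while Gfap read 8147 and 5744. The haemoglobin gene Hbb read 1549 on KA+NAP, 186 on KA, 1430 on NAP and 5 on PBS. The 3′ to 5′ ratio of the beta-actin control was 15.5, 11.4, 7.92 and 14.1 in that order, and that of GAPDH lay between 1.31 and 1.56. The part of cell composition and of RNA quality in the members' differences was not tested.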

How the data were processed

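Total RNA (500 ng per sample) was amplified with the 2-cycle Affymetrix protocol, per the labels' protocols, and signal intensities were computed by the authors with MAS5, per the submitters' processing notes. The deposited intensity values were linear whole numbers without negatives, and the mean after trimming 2% at each end was 250.1 on all 4 arrays. The sources used here do not give the MAS5 settings, detection calls were not used, and the number of arrays, not depth, limits precision.

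Probe sets were named from the platform annotation: 20826 had 1 symbol, 436 had several and 9780 were not listed, besides 57 controls. Of the singly named, 20758 matched the GRCr8 gene table by Entrez identifier, and its symbols were used. Differences were taken on log2(intensity + 10), which understates those of dim genes. Python 3.11.15 with pandas 2.3.3 was used, and the counting was checked on simulated data.

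The members and lists were chosen with earlier results of these data known. Named were the 8 members, the 3 nearest profiles of members ranging over at least 1 on the log2 scale, and the 2 highest and 2 lowest genes of each list in both KA comparisons. Fos, Homer1, Srf and the marker genes were described after their values were seen. Alternatives were other pseudocounts, scalings, probe set summaries, filters and reference arrays.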

Additional observations from a re-analysis of the deposited data

Results flagged for a closer look

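For 4 of the 7 members past the filter the KA difference had opposite signs without and with NAP, as for the dim Egr3 (0.53 and -0.28). With 1 array per group this difference was not tested. The share of all genes with opposite signs was not counted, so the number of members is a description only. Of all genes, 47.2% lay below 0 in KA minus PBS and 47.3% in KA+NAP minus NAP. Egr1 was at -0.89 in KA minus PBS and 0.0785 in KA+NAP minus NAP. Egr4 was at -0.83 and 0.18. Nr4a1 was at -0.94 and 0.40. Nr4a2 was at -1.12 and 0.13. With PBS in place of NAP, the sign of KA+NAP minus the array without KA turned for Egr1, Egr4 and Nr4a1, as given above.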

How the results depend on the processing

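No difference of a member that reached 2-fold turned its sign under any alternative run, and 210 of 216 member values moved by less than 0.5 on the log2 scale, a fixed tolerance since no replicate spread exists. Averaging all probe sets moved Nr4a3 to -0.93 in KA minus PBS and -0.56 in KA+NAP minus NAP, because its dim probe set then counts equally, Egr2 to -0.02 and 0.38 in the same comparisons, and Nr4a2 to 1.76 in the change of the KA difference with NAP. The members 2-fold apart numbered 1 in KA minus PBS with a pseudocount of 50 and 1 with averaged probe sets, against 2, and 3 with a pseudocount of 1 or with centred arrays, where Nr4a1 was added. In KA+NAP minus NAP they numbered 2 with a pseudocount of 1 (Egr2 added at 1.02) and 0 with averaged probe sets, against 1, and in KA+NAP minus KA 0 with a pseudocount of 50, against 1. With quantile normalization Egr4 was under 2-fold in the change of the KA difference, at 0.95, and with a pseudocount of 50 at 0.68. The share of all genes 2-fold apart either way was 7.30% in KA minus PBS, 8.07% in KA+NAP minus NAP, 2.12% in KA+NAP minus KA, 1.30% in NAP minus PBS and 3.52% in the change of the KA difference, and with a pseudocount of 50 it was 4.58%, 5.03%, 1.11%, 0.59% and 1.88%. In the last 3 it was 1.04%, 0.78% and 2.17% when the 75th percentile was the filter, and 3.97%, 3.22% and 7.65% without a filter. The shares under other pseudocounts and scalings, and the list counts, of which 149 of 162 stayed within 1.5 times, were added after the data were seen. Leaving out replicates and paired fits could not be run with 1 array per group.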
